A study of Drosophila melanogaster with 12 samples.

Results

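The genes described here make or assemble ribosomes, or build the nucleolus in which ribosomes are assembled, and they were taken by symbol from a list of 10 that is headed by Myc. Rows for 8 of them were found among the 8802 genes of the count table: Fib, Nop60B, NHP2, Ns1, Nopp140, pit, mbm and Tif-IA. All 8 passed the filter on low counts and are among the 7992 genes tested. Myc and nop5 were not analysed here.

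The RNA came from Drosophila melanogaster intestinal stem cells of the posterior midgut (regions R3 to R5), sorted by the green fluorescence that the esg-Gal4 driver gives through UAS-GFP. The study asked which genes are controlled by Shavenbaby (Svb), a transcription factor that the gene ovo encodes, and each of its 4 groups held 3 libraries from replicates made on different days. Every group carried esg-Gal4, UAS-GFP and tubGal80TS, a temperature-sensitive repressor of Gal4. The control flies (esg-Gal4, UAS-GFP/+; tubGal80TS/+) came from a cross to Canton-S, and in the other groups the chromosome opposite tubGal80TS held UAS-SvbRNAi, UAS-SvbACT::GFP or UAS-Svb3Kmut::GFP, the last of which is called SvbREP. SvbACT and SvbREP are described as constitutive forms. By their genotypes both are tagged with GFP, and the part of these tags in the sorted green fluorescence was not tested. As background, SvbACT stands for the transcriptional activator into which Svb is processed and SvbREP for the unprocessed repressor. All flies were virgin females aged 3 days at room temperature and then kept at 29 °C for 6 days, so that they were 9 days old, and each sample pooled more than 20 of them. The esg-Gal4 driver is active in stem cells and also in enteroblasts, their undifferentiated daughters. In these bulk samples, fewer cells of a type and less RNA per cell cannot be told apart.

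As background, a ribosome begins as a long precursor RNA that RNA polymerase I makes in the nucleolus. Small nucleolar ribonucleoprotein particles (snoRNPs) then modify it at chosen bases, the box C/D particles by 2′-O-methylation and the box H/ACA particles by pseudouridylation, while helicases, GTPases and assembly factors fold and cut it into the subunits. The transcription factor Myc raises many of these genes together, and in the fly midgut Myc and the supply of ribosomes are known for their part in the growth and division of intestinal stem cells.

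Library totals ranged from 2965852 to 6575392 counts. Levels are given as counts per 1000000 counts (CPM), scaled by edgeR's TMM factors, and 3 counts, taken as the smallest level a library could show, came to between 0.482 and 1.02 CPM. The lowest member value was 77 counts, so that every member was far above this floor in every library. Counts of the targeted gene ovo were not lower under the label of the knockdown. They were 3 to 64 in control and 206 to 225 in the libraries labelled svb RNAi. With overexpression, SvbACT libraries had 8803 to 11901 ovo counts and SvbREP libraries 6145 to 12642. All 3 libraries labelled svb RNAi had more ovo counts than any control library, and no comparison with this group can be given without them. Whether reads from the UAS transgenes are counted under ovo was not tested, so these counts alone do not tell whether the knockdown worked. The summed level of 8 stem cell and enteroblast markers was 4824 to 5335 CPM in control and 3882 to 4561 CPM in the libraries labelled svb RNAi, where 4 of the 8 were called lower and 1 higher. It was 5276 to 6320 CPM in SvbACT and 4380 to 4731 CPM in SvbREP.

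At the control level, per kilobase of annotated exon, Fib stood highest with 122 ± 40.4 CPM per kb (SD, n = 3). Nopp140 had 81.7 ± 13.6 and Nop60B 77.0 ± 10.1 CPM per kb. Tif-IA had 42.6 ± 4.93, NHP2 41.4 ± 6.74, Ns1 27.8 ± 3.39, pit 26.2 ± 3.58 and mbm 25.5 ± 3.91 CPM per kb. In this order Nopp140 and Nop60B did not differ beyond their spread, nor did Tif-IA and NHP2, nor did Ns1, pit and mbm. The gap between Fib and Nopp140 was about the size of the SD of Fib.

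Among the 4 groups, 3 of the 8 members differed at an adjusted p under 0.05 in edgeR's quasi-likelihood F test, the threshold used for every call here, and 28.8% of all genes tested did so. These were Nop60B (adjusted p = 4.06e-05 in edgeR), pit (0.00152) and NHP2 (0.0397). At an unadjusted p under 0.05 there were 6. The share of all genes at an unadjusted p is not given here or below, and the 28.8% is not its comparator. In each of the 3, the libraries labelled svb RNAi held the highest mean, as they did for all members except Nopp140, for which the mean of SvbREP was higher.

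**Figure D1:**
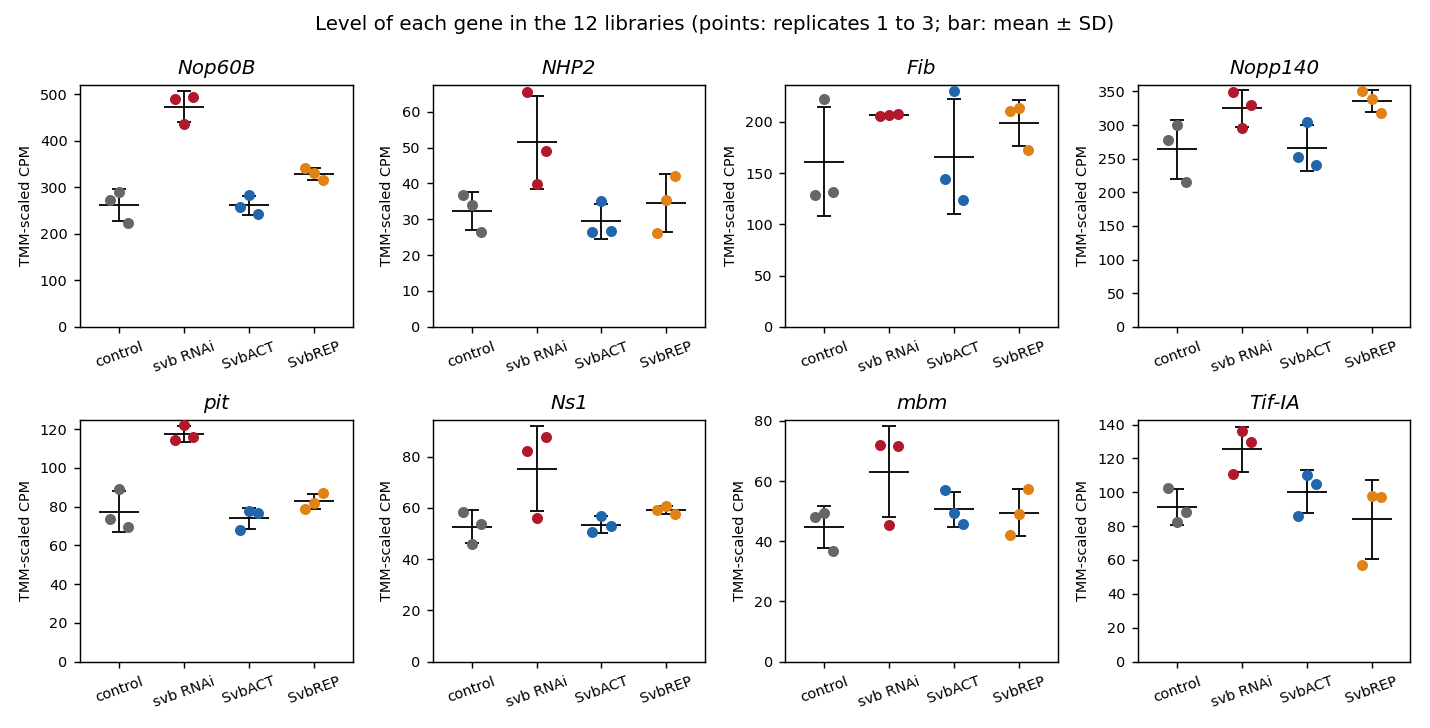
TMM-scaled CPM (vertical axes, each starting at 0) of the 8 genes in the 12 libraries, by group. Points are replicates 1 to 3 from left to right and bars are the mean ± SD. For Nop60B and pit the 3 points of svb RNAi lie above all points of every other group, and for Fib replicate 2 of control and of SvbACT lies above the other replicates of its group.

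Control was first set against the libraries labelled svb RNAi. This comparison follows the label and, since ovo counts were higher in them for reasons not tested, is not taken here as a knockdown. In these libraries 4 of the 8 members were called higher, namely Nop60B, pit, NHP2 and Ns1, by 1.43-fold to 1.81-fold, and none was called lower. Of all genes tested, 6.74% were called higher and 13.7% lower. All 8 members had a log2 fold change above 0, as 51.7% of all genes had. The members' median log2 fold change was 0.51, beside 0.02 for all genes tested.

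Nop60B, the fly dyskerin and the pseudouridine synthase of the H/ACA snoRNPs, had the largest difference of the 8. It was at 274, 290 and 224 CPM in control replicates 1 to 3, at 491, 437 and 494 CPM in the libraries labelled svb RNAi, at 258, 283 and 243 CPM in SvbACT, and at 341, 332 and 316 CPM in SvbREP. The libraries labelled svb RNAi were highest without overlap, those of SvbREP came next without overlap, and control and SvbACT covered the same range. Against control, Nop60B rose 1.81-fold in the libraries labelled svb RNAi (log2 fold change 0.85 ± 0.112 SE, 95% interval 0.61 to 1.09, adjusted p = 4.07e-05 in edgeR). That log2 fold change is at the percentile 94.98 of all genes tested.

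NHP2 is a core protein of the same H/ACA particles and binds their RNA. It was at 36.7, 33.8 and 26.5 CPM in control, at 65.4, 39.8 and 49.1 CPM in the libraries labelled svb RNAi, at 26.4, 35.1 and 26.8 CPM in SvbACT, and at 26.1, 35.4 and 42.0 CPM in SvbREP. The lowest library labelled svb RNAi, replicate 2, stood just above the highest of control and below the highest of SvbREP. NHP2 rose in the libraries labelled svb RNAi by a log2 fold change of 0.67 ± 0.222 SE (1.59-fold, 95% interval 0.19 to 1.14, adjusted p = 0.0449 in edgeR). The call held in 9 of 18 alternative analyses, with an adjusted p between 0.0194 and 0.239 in them.

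Fib, fibrillarin, is the methyltransferase of the box C/D snoRNPs. It was at 129, 223 and 132 CPM in control, at 205, 207 and 207 CPM in the libraries labelled svb RNAi, at 145, 230 and 124 CPM in SvbACT, and at 211, 213 and 173 CPM in SvbREP. Replicate 2 was far above the others in control and in SvbACT, and the groups overlap. Its coefficient of variation was 33.1% in control and 33.9% in SvbACT, and 0.527% in the libraries labelled svb RNAi. Each of these rests on 3 libraries, and a difference in spread between groups was not tested. The 0.527% came from 932, 1159 and 1170 counts, where counting error alone is larger, so it does not measure replicate spread. The log2 fold change of 0.36 ± 0.2196 SE against control was not called (95% interval -0.11 to 0.83, adjusted p = 0.309 in edgeR). It was called in 1 of 18 alternatives, with an adjusted p between 0.0327 and 0.681 in them. That 1 was without control replicate 2, where the log2 fold change was 0.65. Leaving out each library gave 0.20 to 0.65.

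Nopp140 is a phosphoprotein that carries snoRNPs through the nucleolus as their chaperone. It was at 277.5, 299.6 and 215 CPM in control, at 349.8, 295 and 330.1 CPM in the libraries labelled svb RNAi, at 253, 305 and 240.5 CPM in SvbACT, and at 351, 339 and 318 CPM in SvbREP. SvbREP lay above all control libraries, whereas replicate 2 labelled svb RNAi lay within the control range. The difference of 0.30 ± 0.131 SE (log2) between the libraries labelled svb RNAi and control was not called (adjusted p = 0.131 in edgeR), but was in 2 of 18 alternatives (adjusted p 0.0397 to 0.538). The end of Nopp140 overlaps P5CDh1 on the other strand by 21 bp, and strand use in the counting is not given in the sources used here.

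The remaining 4 members act in subunit assembly, nucleolar structure and polymerase I initiation. The gene pit codes for a DEAD-box RNA helicase of the nucleolus. It was at 73.5, 89.4 and 69.3 CPM in control, at 114.6, 122 and 116 CPM in the libraries labelled svb RNAi, at 67.8, 77.6 and 76.5 CPM in SvbACT, and at 79.0, 82.2 and 87.0 CPM in SvbREP. All libraries labelled svb RNAi were above all others, and the other groups overlapped except that SvbACT lay below SvbREP. Against control pit rose 1.52-fold in them (log2 fold change 0.60 ± 0.122 SE, 95% interval 0.34 to 0.86, adjusted p = 0.00198 in edgeR). Nop60B and pit were called higher in all 18 alternative analyses of this comparison.

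Ns1 codes for the fly nucleostemin 1, a GTPase of the nucleolus that acts in the release of large subunit precursors. It was at 58.6, 45.8 and 53.7 CPM in control, at 82.4, 56.3 and 87.5 CPM in the libraries labelled svb RNAi, at 50.5, 56.9 and 53.0 CPM in SvbACT, and at 59.0, 60.7 and 57.6 CPM in SvbREP. Replicate 2 labelled svb RNAi lay within the control range and the other replicates of that group far above it. Ns1 rose by a log2 fold change of 0.52 ± 0.162 SE (1.43-fold, 95% interval 0.17 to 0.86, adjusted p = 0.0338 in edgeR), and the call held in 12 of 18 alternatives, with an adjusted p between 0.00557 and 0.187 in them.

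The mbm gene codes for a nucleolar protein known from the growth of neural stem cells in the fly brain. It was at 48.1, 49.2 and 36.8 CPM in control, at 72.0, 45.5 and 71.8 CPM in the libraries labelled svb RNAi, at 57.0, 49.2 and 45.7 CPM in SvbACT, and at 42.1, 49.2 and 57.4 CPM in SvbREP. As for Ns1, replicate 2 labelled svb RNAi lay in the control range and replicates 1 and 3 far above. The difference of 0.50 ± 0.194 SE (log2) was not called (95% interval 0.08 to 0.91, adjusted p = 0.0881 in edgeR). It was called in 2 of 18 alternatives, with an adjusted p between 0.0216 and 0.342 in them. The lowest came without svb RNAi replicate 2, where the difference was 0.66.

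Tif-IA is the factor that brings RNA polymerase I to the ribosomal RNA promoter and that growth signals act on. It was at 103, 82.2 and 88.4 CPM in control, at 111, 136 and 129.5 CPM in the libraries labelled svb RNAi, at 86.2, 110 and 105 CPM in SvbACT, and at 57.0, 97.5 and 97.3 CPM in SvbREP. Replicate 1 of SvbREP, the shallowest library, was the lowest of all. The libraries labelled svb RNAi were above all others, but the difference of 0.46 ± 0.178 SE (log2) from control was not called (95% interval 0.08 to 0.84, adjusted p = 0.0841 in edgeR). It was called in 4 of 18 alternatives, with an adjusted p between 0.0279 and 0.269 in them. Counting values and not tests, 4 members (Nop60B, NHP2, pit and Tif-IA) were higher than control without overlap, and 15.9% of all genes tested were.

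The count of 4 called members fell to 2 without control replicate 3, without svb RNAi replicate 1, without svb RNAi replicate 3 or without SvbACT replicate 3, where Nop60B and pit were still called. It rose to 7 when libraries were scaled by their totals alone, which moved the median log2 fold change of all genes by 0.13 and the share of calls that were higher from 33.0% to 50.6%. In the authors' deposited table the same 4 members were called higher in this comparison.

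**Figure D2:**
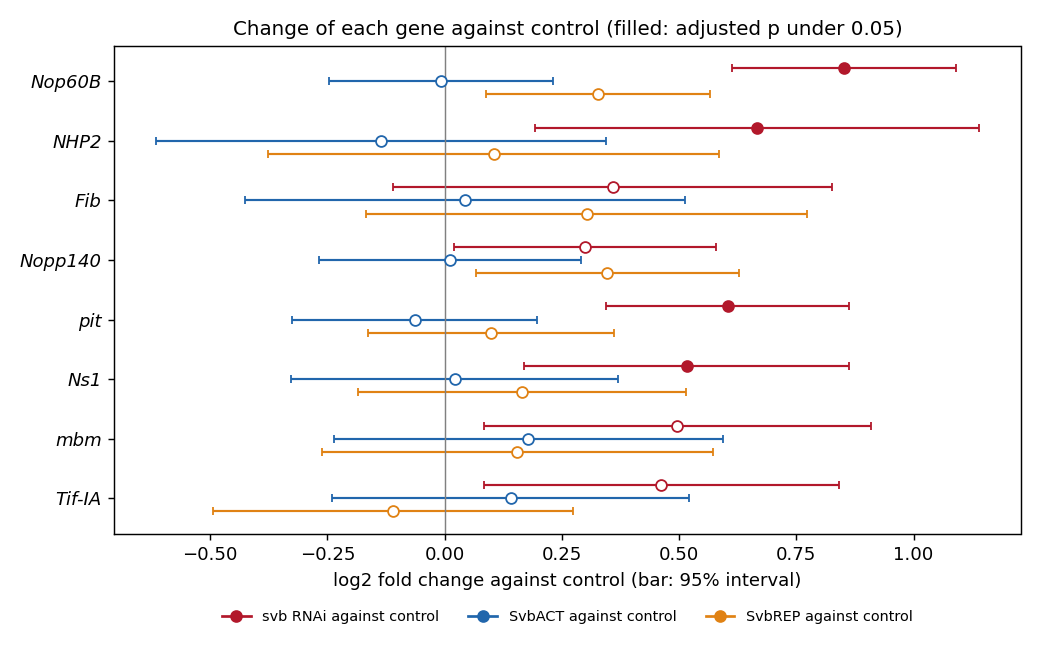
Log2 fold change against control (horizontal axis) of the 8 genes in the libraries labelled svb RNAi, SvbACT and SvbREP, with 95% intervals from edgeR. Filled points, which are those of Nop60B, NHP2, pit and Ns1 in the libraries labelled svb RNAi, have an adjusted p under 0.05, and all SvbACT points lie between -0.14 and 0.18.

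Overexpression of SvbACT asks what the activator form does to these genes. None of the 8 members was called against control, and 9.15% of all genes tested were. The DESeq2 test, also at an adjusted p under 0.05, called 0. At an unadjusted p under 0.05 in edgeR there were 0. Log2 fold changes ran from -0.14 for NHP2 to 0.18 for mbm, with a median of 0.02. For Nop60B the mean was 261 ± 20.0 CPM beside 263 ± 34.4 in control (SD, n = 3 each), and the 95% interval of the log2 fold change reached from -0.25 to 0.23. For Nopp140 the interval was -0.27 to 0.29 and for pit -0.33 to 0.20. The intervals were widest for NHP2, from -0.62 to 0.34, and for Fib, from -0.43 to 0.51.

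Overexpression of SvbREP asks the same of the repressor form. Again none of the 8 was called against control, with 4.05% of all genes tested called. By the DESeq2 test, also at an adjusted p under 0.05, 0 were called. At an unadjusted p under 0.05 in edgeR there were 2. The 2 were Nop60B, with a log2 fold change of 0.33 ± 0.112 SE (adjusted p = 0.126 in edgeR), and Nopp140, with 0.35 ± 0.131 SE (adjusted p = 0.170). Both lay above control without overlap, as 8.82% of all genes did. The other log2 fold changes ran from -0.11 for Tif-IA to 0.30 for Fib, and the median of the 8 was 0.16.

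The overexpressed forms were also set against each other. No member was called between SvbACT and SvbREP, while 13.1% of all genes tested were. At an unadjusted p under 0.05 in edgeR there were 2. At an adjusted p under 0.05 the DESeq2 test called 1, Nop60B (log2 fold change -0.35, adjusted p = 0.0253). Nop60B, Ns1, Nopp140 and pit were lower in SvbACT without overlap, as were 13.4% of all genes. By the rule used, the replicate numbers paired the libraries of these 2 groups, but weakly: same-numbered deviations correlated at 0.103 to 0.199, with a cut-off of 0.1. Once the model held a term for that number, Nop60B (log2 fold change -0.34, adjusted p = 0.0266 in edgeR) and Nopp140 (-0.34, adjusted p = 0.0454) were called lower in SvbACT. Over the alternatives the adjusted p ran from 0.0253 to 0.196 for Nop60B and from 0.0454 to 0.316 for Nopp140. The count of called members was 1 without control replicate 2 or control replicate 3 and 2 without SvbACT replicate 2.

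Each overexpressing group was further compared with the libraries labelled svb RNAi, which the comparison with control above also uses. In SvbACT 4 members were called lower than in the libraries labelled svb RNAi, where 5.41% of all genes tested were. Nop60B fell by 0.86 (log2, adjusted p = 4.06e-05 in edgeR), NHP2 by 0.80 (0.0200), pit by 0.67 (0.000973) and Ns1 by 0.49 (0.0482). All 8 members had a log2 fold change below 0, and 48.1% of all genes had one above 0. The call of Ns1 held in 7 of 18 alternatives (adjusted p 0.00765 to 0.232), that of NHP2 in 15, and those of Nop60B and pit in all 18. The count was 2 without svb RNAi replicate 1, SvbACT replicate 1 or SvbACT replicate 3.

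In SvbREP 3 members were called lower than in the libraries labelled svb RNAi, where 8.85% of all genes tested were. Nop60B fell by 0.53 (log2, adjusted p = 0.00305 in edgeR), pit by 0.51 (0.00746) and Tif-IA by 0.57 (0.0317). The call of Tif-IA held in 13 of 18 alternatives (adjusted p 0.0112 to 0.143). It was lost without control replicate 3, svb RNAi replicate 2, svb RNAi replicate 3 or SvbREP replicate 1. It was also lost with only the groups compared in the fit (adjusted p = 0.0569 in edgeR). Nopp140 and Fib had log2 differences of 0.05 and -0.06 there, with 95% intervals of -0.23 to 0.33 and -0.52 to 0.41. Nop60B and pit were the members called in all 3 comparisons that include the libraries labelled svb RNAi, and in those libraries both lay above every other group without overlap.

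The level of the 8 genes together was described by the mean of their log2 CPM relative to control. With 3 libraries each, control had 0 ± 0.158 (SD), SvbACT 0.03 ± 0.149, SvbREP 0.17 ± 0.105 and the libraries labelled svb RNAi 0.53 ± 0.134. Single libraries labelled svb RNAi were at 0.62, 0.38 and 0.60, above the highest other library at 0.23, and in each of them all 8 genes were above their control mean. Summed over the 8 genes, control had 986 ± 134 CPM, SvbACT 1001 ± 126, SvbREP 1174 ± 31.4 and the libraries labelled svb RNAi 1439 ± 86.4.

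**Figure D3:**
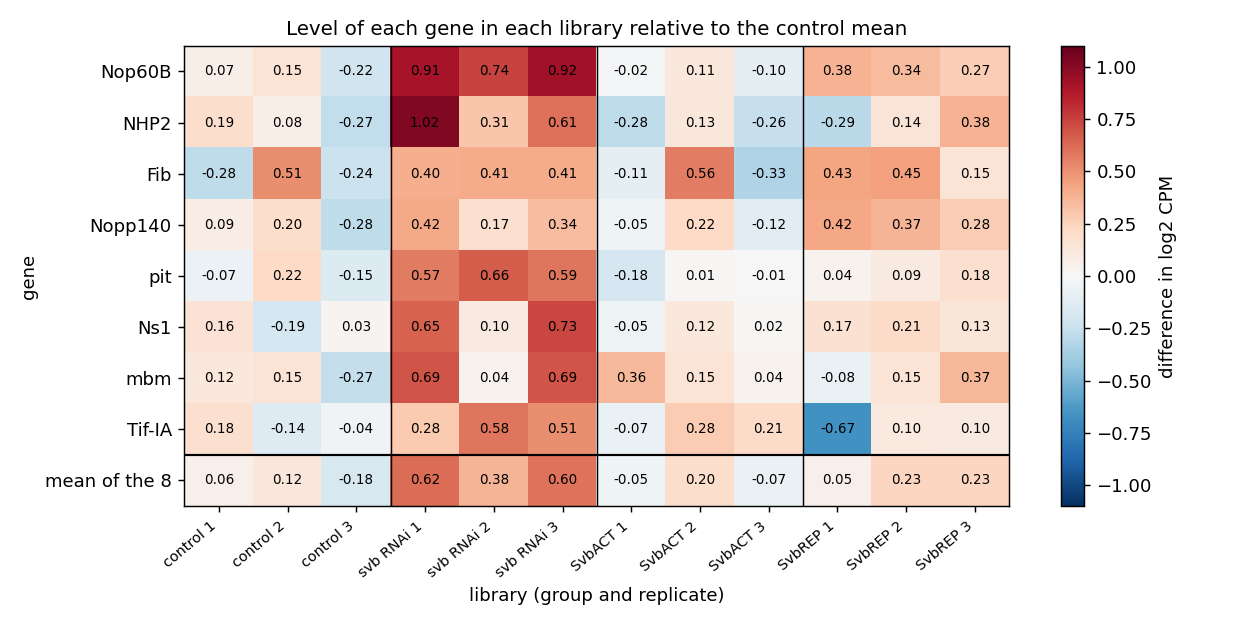
Log2 CPM of the 8 genes (rows) in the 12 libraries (columns) relative to the mean of control, printed in each cell and shown by colour, with the mean of the 8 in the last row. All cells of the svb RNAi columns are above 0, the lowest being 0.04 for mbm in replicate 2, and the lowest cell of the map is -0.67 for Tif-IA in SvbREP replicate 1.

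Within groups the members varied together in part. Over the 12 libraries, the deviations of log2 CPM from the group means had a median Pearson r of 0.364 over the 28 pairs of members, from -0.408 for Ns1 with pit to 0.978 for Nop60B with Nopp140, and 23 of the 28 were above 0. All points share their libraries, scaling factors and depth, and no test was made. NHP2 with mbm had 0.743 and Fib with Nopp140 had 0.735. Tif-IA followed the others least, with a median r of 0.0501.

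The genes lie apart from each other in the genome. In dm6 coordinates of the Ensembl annotation, Fib is at chromosome arm 2R, 23072909 to 23074725 on the minus strand, and Nop60B is at 2R, 24174877 to 24186343 on the plus strand. NHP2 (14801328 to 14802168, minus) and Nopp140 (21832774 to 21836685, plus) are on 3L. On 3R are Ns1 (17070523 to 17072675, minus) and pit (22034298 to 22038925, plus), and on 2L are mbm (271912 to 273715, minus) and Tif-IA (22249876 to 22258260, plus). A feature that the choice of genes did not use is that 3 of the 8 hold genes annotated as small nucleolar RNA on their own strand. Nop60B holds 7 of them, 6 of which overlap an annotated exon, and Fib holds 1 in an intron. The 1 in an intron of pit is named scaRNA:MeU5-G38, a small Cajal body RNA by its name, which the annotation puts in the same class. Of 8154 protein-coding genes of the table, 0.969% hold any gene of this class. Reads from such RNA could be counted with the 6 that overlap exons of Nop60B, and their part in its level was not tested.

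Other genes of the pathway were taken from 4 lists of ribosome biogenesis factors, with 66 genes tested of 69. In the libraries labelled svb RNAi 21 of the 66 were called higher and 0 lower, beside 6.74% and 13.7% of all genes tested. The median log2 fold change was 0.40, beside 0.02 for all genes, and 57 of the 66 were above 0, beside 51.7% of all genes. The count was 9 without control replicate 3 and 13 without svb RNAi replicate 2. It was 29 with scaling by library totals alone.

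Of 7 other snoRNP proteins and assembly factors, Nop56, a core protein of the box C/D particles, was called higher at 255 ± 23.8 CPM against 166.5 ± 12.6 in control (log2 fold change 0.62, adjusted p = 0.00278 in edgeR). The remaining H/ACA core proteins by their yeast counterparts, CG7637 (Nop10) and CG4038 (Gar1), were not called, with log2 fold changes of 0.56 (adjusted p = 0.125) and -0.16 (adjusted p = 0.569). Nop60B and NHP2 thus passed the test and these partners did not, and the difference between the partners was not itself tested.

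Among 17 genes of RNA polymerases I and III and their factors, 2 were called higher, a count near the 6.74% of all genes. RpI1, the largest subunit of polymerase I, was at 292 ± 21.7 CPM against 164 ± 14.5 in control (log2 fold change 0.83, adjusted p = 6.72e-05 in edgeR). Rpc160, the largest of polymerase III, was at 61.2 ± 10.1 CPM against 36.8 ± 9.80 (0.74, adjusted p = 0.0202). The second largest polymerase I subunit, RpI135, was not called (0.20, adjusted p = 0.589).

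For the small subunit 9 of 20 processome and assembly genes were called higher, beside 6.74% of all genes tested. CG9253, a DEAD-box protein like human DDX47, had a log2 fold change of 0.65 ± 0.129 SE (adjusted p = 0.00167 in edgeR). For kz, the helicase DHX37 of humans, the log2 fold change was 0.72 (adjusted p = 0.00474), and for Mat89Ba, a counterpart of human NOL6, it was 0.61 (adjusted p = 0.00701).

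For the large subunit 9 of 22 assembly and export genes were called higher, beside 6.74% of all genes tested. CG13185, the fly counterpart of the yeast ATPase midasin, was at 1130 ± 82.9 CPM against 697 ± 101 in control (log2 fold change 0.70, adjusted p = 0.000419 in edgeR). Mybbp1A had a log2 fold change of 0.71 (adjusted p = 0.000644), and peng, a Puf-family RNA-binding protein of the nucleolus, one of 0.61 (adjusted p = 0.00197). Among the members of the nucleostemin family in the list, Ns3 was called higher (0.58, adjusted p = 0.0120) and Ns2 was not (-0.03, adjusted p = 0.893); these were named after their values were seen, as relatives of Ns1.

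**Figure D4:**
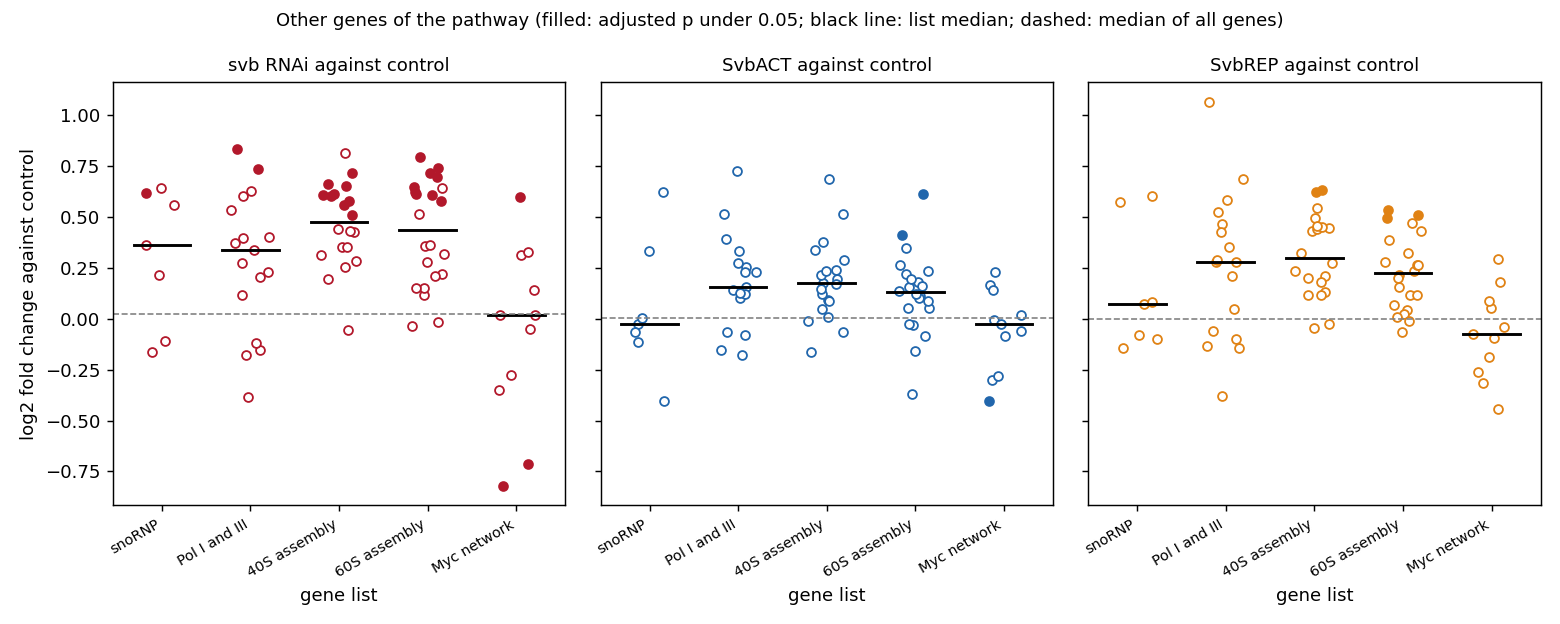
Log2 fold change against control (vertical axis) of the other genes of the pathway by list, with a panel for each comparison. Points are genes, filled where the adjusted p is under 0.05, black lines are list medians and the dashed line is the median of all genes tested; in the libraries labelled svb RNAi all 21 filled points of the 4 ribosome biogenesis lists are above 0, and the Myc network list has 1 filled point above and 2 below.

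A further list held 11 regulators and partners of Myc, all of which were tested. In the libraries labelled svb RNAi 1 was called higher and 2 lower, counts near the 6.74% and 13.7% of all genes called, and the list's median log2 fold change was 0.02, that of all genes. Mnt, which competes with Myc for the partner Max and represses Myc targets, fell from 219 ± 38.1 to 124 ± 18.3 CPM (log2 fold change -0.82, adjusted p = 0.00422 in edgeR). The translational repressor brat, which holds down Myc in neural and germline lineages, fell from 1264 ± 60.5 to 771 ± 66.4 CPM (-0.71, adjusted p = 0.000137). The ubiquitin protease puf, which stabilises Myc, rose from 521 ± 62.5 to 789 ± 47.7 CPM (0.60, adjusted p = 0.000734). Max itself was not called (-0.05, adjusted p = 0.931). The calls of Mnt, brat and puf held in all 18 alternatives.

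In SvbACT 2 of the 66 ribosome biogenesis genes were called higher and 0 lower, with a median log2 fold change of 0.14. Of all genes tested 3.92% were called higher. They were NO66, a nucleolar oxygenase, with 0.61 (adjusted p = 0.0148 in edgeR), and CG13185 with 0.41 (adjusted p = 0.0389). The count was 4 with the replicate block, where deviations of same-numbered libraries correlated at only 0.113 to 0.248, above the cut-off used for pairing. It was 0 without control replicate 3 or SvbACT replicate 3, and 1 without control replicate 1, svb RNAi replicate 1, SvbACT replicate 1, SvbACT replicate 2 or SvbREP replicate 2. Of the Myc network, Mondo, a partner of bigmax in sugar sensing, was called lower (-0.40, adjusted p = 0.0324).

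In SvbREP 5 of the 66 were called higher and 0 lower, with a median of 0.25, and 1.35% of all genes were called higher. They were l(1)G0020, the RNA acetyltransferase NAT10 of humans, with 0.63 (adjusted p = 0.0333 in edgeR), kz with 0.62 (0.0446), CG13185 with 0.53 (0.0167), peng with 0.51 (0.0304) and Mybbp1A with 0.50 (0.0407). These calls rested on few libraries. The count was 0 without control replicate 3 or SvbREP replicate 2, 1 without control replicate 1 or SvbREP replicate 1, 3 without svb RNAi replicate 3 or SvbREP replicate 3, and 8 without control replicate 2. These comparisons share their control libraries, of which replicate 3 had the lowest mean of the 8 members, at -0.18 (log2 relative to control).

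Between SvbACT and SvbREP 3 of the 66 were called lower in SvbACT and 0 higher, where 6.63% of all genes were called lower. CG4038, the Gar1 counterpart of the H/ACA particles, had a log2 fold change of -0.72 (adjusted p = 0.00801 in edgeR), CG32344, like the human helicase DDX54, one of -0.53 (0.0162), and CG4554, like human UTP20, one of -0.42 (0.0260). With the replicate block 5 were called lower. The count was 1 without SvbACT replicate 1 or SvbREP replicate 3 and 5 without SvbACT replicate 2.

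Markers of other cells that a sort could carry were measured beside these genes. The summed level of 14 enterocyte markers was 413 to 843 CPM in control and 343 to 438 CPM in the libraries labelled svb RNAi, where 0 of 14 were called higher and 1 lower. The sum was 454 to 553 CPM in SvbACT and 496 to 675 CPM in SvbREP, but Myo31DF, a brush border myosin, made up most of it there. The other 13 markers summed to 41.0, 429 and 395 CPM in control replicates 1 to 3, 182 to 231 CPM in the libraries labelled svb RNAi, 74.8 to 165 CPM in SvbACT and 30.1 to 62.4 CPM in SvbREP. Against control the median log2 fold change of the 14 was -1.21 in SvbACT, with 1 called lower, and -2.73 in SvbREP, with 2 called lower. For 12 enteroendocrine markers SvbREP had 547 to 3426 CPM, SvbACT 485 to 825, control 378 to 1129 and the libraries labelled svb RNAi 352 to 1267, with CCHa2 at 0 in the libraries labelled svb RNAi and AstA at 0 in SvbACT. Visceral muscle markers (8) summed to 9.07 to 27.1 CPM over all libraries, and 2 haemocyte markers, of 6 listed, to 4.78 to 58.0 CPM. Nearly all of the haemocyte sum was srp, with group means of 6.10 to 30.3 CPM, while the group means of Hml were at most 0.475 CPM. Among the progenitor markers Dl, the Notch ligand of the stem cells, had 533 ± 72.9 CPM in the libraries labelled svb RNAi and 958 ± 94.9 CPM in control. Sox100B, klu and Sox21a also had lower means there, while esg, pnt, sna and E(spl)m3-HLH had higher means. The gene of the driver, esg, was at 2046 ± 267 CPM there and 2027 ± 150 CPM in control, but at 1291 ± 42.4 CPM in SvbREP. The part of these shifts in the levels of the ribosome biogenesis genes was not tested.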

How the data were processed

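Counts per gene were deposited by the authors as whole numbers, in 1 table of 8802 genes by 12 libraries. Its log2 fold changes, p-values and calls, the last coded as a score, are the authors' own and served only for the comparison named. The submitters' processing notes name FastQC 0.11.5, STAR 2.5.2b, HTSeq 0.6.0, edgeR and genome build dm6, with no role or order; strand use and molecular identifiers are not given in the sources used here. The Ovation SoLo kit and single reads of 100 nt were used, per the labels' protocols.

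Groups follow the labels, with 3 biological replicates each. All tests used edgeR 4.0.16 (R 4.3.3), with its quasi-likelihood F test on the deposited counts, TMM factors and 4 group means. The filter on low counts was filterByExpr (minimum count 10, minimum total 15, minimum proportion 0.7), and p-values were adjusted over 7992 genes by the Benjamini-Hochberg method. Log2 CPM uses a prior count of 2. Floors of 3 counts and all intervals cover counting error or replicate spread only, since amplified reads are not independent molecules. Counts of any pair of replicates differed by more than sampling noise (chi-square per degree of freedom at least 7.89). The fit was also run on simulated counts with planted changes, each larger than any member difference here. Its outcome is not given, and it lends no support to the calls.

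Replicate numbers come from the titles. They were taken to pair libraries where the deviations of every same-numbered pair correlated above 0.1. This held for SvbACT with control (0.113 to 0.248), with SvbREP (0.103 to 0.199) and with the libraries labelled svb RNAi (0.182 to 0.221). All these correlations were weak, and the labels name no block. The rule did not pair control with SvbREP or with the libraries labelled svb RNAi, although it paired SvbACT with each of them. Alternatives were DESeq2 1.42.0 size factors or test, library totals alone, no filter, a replicate block, only the groups compared, and leaving out each library.

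The members and lists were chosen with earlier results of these data known, and no list gives independent support. All members were named in each comparison, and from each list up to 3 called genes of smallest adjusted p in each direction. Genes most like Myc were to be named. Since Myc was not analysed here, likeness to the mean of the 8 members took its place, after values had been seen. Coordinates, exon lengths and small nucleolar RNA genes come from Ensembl release 115, which matched 8686 identifiers. Sequences are not used here.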

Additional observations from a re-analysis of the deposited data

How the results depend on the processing

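Each result was recomputed under up to 18 alternatives. The number of members called among the 4 groups, 3, was 6 with library totals alone, 5 with the DESeq2 test, 6 with the replicate block, and 2 to 4 when leaving out each library. For svb RNAi against control the 4 members became 7 with library totals alone and 2 to 5 when leaving out each library. For SvbREP against control 0 became 1 with the replicate block, by Nop60B (adjusted p = 0.0492 in edgeR). For SvbACT against SvbREP 0 became 1 with the DESeq2 test, 2 with the replicate block and 0 to 2 when leaving out each library. For SvbACT against svb RNAi 4 became 2 to 4 and for SvbREP against svb RNAi 3 became 2 to 4 when leaving out each library. With only the groups compared in the fit, these counts were 3 and 2. No member was called in SvbACT against control under any alternative.

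In svb RNAi against control the replicate numbers did not pair the libraries by the rule used (lowest correlation 0.0674), nor did they in SvbREP against control (lowest -0.0809) or SvbREP against svb RNAi (lowest 0.0143). With the replicate block the count of called members in svb RNAi against control was 6, adding Nopp140 (adjusted p = 0.0489 in edgeR) and Tif-IA (0.0470), and in SvbREP against svb RNAi it was 3, as without it. Over the 66 other ribosome biogenesis genes, svb RNAi against control had 27 higher calls with the block and SvbREP against control 11. With the DESeq2 test SvbREP against control had 9, and with only its own groups in the fit 0.

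Scaling by library totals alone also moved the share of higher calls from 68.9% to 52.2% in SvbACT against svb RNAi, where the median of all genes shifted by -0.11 (log2), and from 61.2% to 49.3% in SvbREP against svb RNAi. Under that scaling 3 uncalled differences changed sign, Nop60B in SvbACT against control to 0.0062, mbm in SvbACT against SvbREP to -0.0057 and Nopp140 in SvbREP against svb RNAi to -0.0347. Leaving out a library turned others that were near 0 and not called. In SvbACT against control the log2 fold changes then ran from -0.27 to 0.35 for Fib, -0.11 to 0.0693 for Nop60B, -0.0692 to 0.0989 for Ns1, -0.12 to 0.11 for Nopp140 and -0.14 to 0.0517 for pit. In SvbREP against control they ran from -0.0627 to 0.27 for NHP2 and -0.23 to 0.10 for Tif-IA, in SvbACT against SvbREP from -0.0879 to 0.14 for mbm, and in SvbREP against svb RNAi from -0.0895 to 0.0258 for Fib. Of the single-gene results under alternatives, 1143 kept direction and side of the threshold, 95 lost and 19 gained a call, and 21 changed sign. The cause of these shifts was not tested. With 3 libraries a group, leaving out 1 leaves fewer samples for the estimate of spread.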

Other observations

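Across the 12 libraries, the 5 tested genes whose log2 CPM was most like the mean of the 8 members included Nop56, a core protein of the box C/D particles. The highest Pearson r was 0.961 for CG30349, followed by 0.941 for CG13096, 0.927 for FBgn0015393, which has no symbol in the table, 0.912 for Nop56 and 0.909 for CG4887. The members themselves were left out, and the measure was chosen after the values had been seen. Since the mean of the 8 is highest in the libraries labelled svb RNAi, genes chosen by this likeness had to be high there too, and no test is drawn from it: their log2 fold changes against control were 0.69, 0.43, 0.91, 0.62 and 0.46. In SvbACT the log2 fold changes were 0.07, 0.03, 0.07, -0.03 and 0.14, and in SvbREP 0.21, 0.14, 0.21, 0.07 and 0.12. The r was taken over levels and so includes differences between groups, and all points share libraries and scaling factors.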
